A study of Mus musculus with 26 samples.

Results

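The transcripts of Per1, Per2, Per3, Cry1 and Cry2 were followed in the choroid plexus (ChP), the epithelial tissue in the brain ventricles that secretes cerebrospinal fluid. The genes were taken by symbol from the tables of counts per gene, which gave 5 of 55416 listed genes, and all 5 were among the 13697 genes that entered the tests, those with a mean of at least 1 CPM in each group, where CPM are counts scaled to library size. The groups were adult male C57Bl6J mice after sham surgery (Ctrl), mice of the same strain, sex and age class after SCN lesion (SCNx), and adult male mice of the genotype FoxJ1-ERT2-Cre+/-; Bmal1fl/fl fed tamoxifen (KO). The suprachiasmatic nuclei (SCN) hold the central circadian pacemaker, and mice with an electrolytic lesion were kept only when they had no locomotor rhythm in constant darkness and no remaining SCN in brain sections. Both surgical groups were returned to a light-dark cycle and then left in constant darkness for 2 days, during which 1 mouse per group was killed every 4 h, from circadian time (CT) 0 to CT44. Lights would have come on at CT0 and gone off at CT12, and for SCNx mice too CT is counted from that cycle. The KO mice stayed in a light-dark cycle, and 1 was killed at Zeitgeber time (ZT) 7, in the light, and 1 at ZT18, in the dark. In the KO line, Cre is driven by the promoter of Foxj1 and so acts in cells with motile cilia, which include but are not limited to ChP epithelium, and the recombination was checked by the authors in liver only. Libraries carry the group and the time as their name, as in Ctrl CT4.

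The Period and Cryptochrome proteins form the negative limb of the molecular clock. BMAL1 (encoded by Arntl) and CLOCK or NPAS2 bind E-box sequences and activate the Per and Cry genes, and the PER and CRY proteins enter the nucleus together and repress that activation, until they are phosphorylated, ubiquitinated and degraded. D-box factors and ROR-element factors act on some of the same genes and set the times at which each of them is transcribed. Per1 and Per2 also respond to signals from outside the cell through CREB and the glucocorticoid receptor, and the ChP is known as a brain tissue outside the SCN with a clock of its own.

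To show which of these elements stand near the starts of the genes, promoters were taken from RefSeq on the build GRCm38.p6, from 250 bases before the annotated start to 50 after it. They were matched for 4 of the 5 genes (not Per2), and Per1 had a second start. The sequences run 5′ to 3′ along the gene, and capitals mark matches to the E-box CACGTG, the E'-box CACGTT, the D-box TTANGTAA or the ROR element TNGGTCA, where N is any base, on either strand. The counts were made on another build, GRCm39, so these positions serve the sequences only. The Per1 promoter is chr11:69098699-69098998 on the plus strand, and the others lie on the minus strand, Per3 at chr4:151044616-151044915, Cry1 at chr10:85185005-85185304 and Cry2 at chr2:92434020-92434319.
Per1: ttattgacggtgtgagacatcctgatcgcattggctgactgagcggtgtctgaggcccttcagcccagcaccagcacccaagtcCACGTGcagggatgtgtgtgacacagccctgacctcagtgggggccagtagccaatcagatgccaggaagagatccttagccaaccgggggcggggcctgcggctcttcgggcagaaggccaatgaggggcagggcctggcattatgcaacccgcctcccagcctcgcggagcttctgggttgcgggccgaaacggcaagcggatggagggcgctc
Per3: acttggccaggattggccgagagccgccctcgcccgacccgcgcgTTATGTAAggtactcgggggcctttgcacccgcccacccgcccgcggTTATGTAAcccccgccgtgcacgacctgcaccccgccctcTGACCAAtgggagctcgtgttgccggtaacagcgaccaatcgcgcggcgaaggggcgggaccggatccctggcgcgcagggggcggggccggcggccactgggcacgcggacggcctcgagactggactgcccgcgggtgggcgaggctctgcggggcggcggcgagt
Cry1: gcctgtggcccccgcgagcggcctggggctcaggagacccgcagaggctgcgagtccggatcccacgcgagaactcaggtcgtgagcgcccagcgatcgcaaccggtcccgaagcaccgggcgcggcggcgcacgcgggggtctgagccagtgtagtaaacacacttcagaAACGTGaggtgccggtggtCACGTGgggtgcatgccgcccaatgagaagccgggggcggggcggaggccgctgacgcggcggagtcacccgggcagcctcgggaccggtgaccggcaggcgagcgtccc
Cry2: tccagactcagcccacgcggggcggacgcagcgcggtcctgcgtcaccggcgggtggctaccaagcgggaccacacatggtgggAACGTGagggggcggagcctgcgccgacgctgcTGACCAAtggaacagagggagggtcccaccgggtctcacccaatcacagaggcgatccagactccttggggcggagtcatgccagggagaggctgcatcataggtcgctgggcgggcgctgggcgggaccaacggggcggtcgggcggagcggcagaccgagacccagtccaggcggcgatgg

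Per1 had 1 E-box, with its first base 166 before the start. Cry1 had an E-box 60 bases and an E'-box 79 bases before the start. Per3 had no E-box in this window, but 2 D-boxes at 205 and 158 bases and a ROR element at 118 bases before the start. Cry2 had an E'-box at 166 bases and a ROR element at 133 bases before the start. No match overlapped another. An E-box was present in 7.15% of the 32851 promoters of this length in the table, an E'-box in 4.68%, a D-box in 2.32% and a ROR element in 11%. The cAMP response element TGACGTCA (1.79% of promoters) and the palindromic glucocorticoid response element (0.475%) were searched too and had no match in any of the 5 windows, nor had the second Per1 start any of the 6 motifs. These matches describe letters in a short window and not binding.

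In the tables, between 38751201 and 49527655 estimated counts fell on the genes of a Ctrl or SCNx library, and 17425207 and 18059227 on those of the KO libraries, so that the lowest count of any of the 5 genes in a Ctrl or SCNx library was 347 (Per3 in Ctrl CT0). As a check of the tissue, the 10 markers of ChP epithelium, Ttr and Folr1 among them, summed to between 105920 and 166370 CPM in every Ctrl and SCNx library. Neuron and astrocyte markers were raised in Ctrl CT4 (306 and 665 CPM) and SCNx CT32 (288 and 633 CPM) against group medians of at most 14.8 and 138 CPM. Hepatocyte markers were raised in Ctrl CT16 (1552 CPM) and SCNx CT0 (10499 CPM) against group medians of at most 3.80 CPM. Blood markers were raised in SCNx CT44 (4856 CPM) against a group median of 389 CPM and a next highest SCNx library of 1054 CPM. Each of the 5 genes was called or not called as a 24 h rhythm in each group alike when any of these 5 libraries was left out. In bulk tissue, fewer cells of a type and less RNA per cell cannot be told apart.

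In Ctrl mice all 5 genes oscillated, with Per3 and Cry2 highest around the start of the subjective night, Per1 and Per2 fitted to peak after them, and Cry1 late in the night. In this comparison 5 of the 5 genes were called, against 10.7% of all genes tested. The amplitude was largest for Per2 and Per3 and smallest for Cry2. The values repeated on the second day in darkness, and the 2 mice killed at the same time of day differed by at most 1.29-fold in any of the 5 genes.

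Per1, the member of the family that responds fastest to acute signals, was lowest in the morning, with 19.0 CPM in Ctrl CT4 and 22.7 in Ctrl CT28, and stood at 40.1 and 42.3 CPM by CT8 and CT32. It was highest at CT12 and CT36, with 76.0 and 76.5 CPM, and had fallen to 47.2 and 50.9 CPM by CT16 and CT40 and to 34.9 and 40.1 CPM by CT20 and CT44. At CT0 and CT24 it was at 33.1 and 26.9 CPM. The 2 libraries at the start of the subjective night thus stood above all others, and the 12 libraries spanned 4.03-fold. The fitted log2 amplitude (from the mean to the peak of the curve) was 0.75 ± 0.10 (SE, n = 12 mice) with the peak at 13.7 ± 0.51 h and a peak-to-trough fold of 2.82 (adjusted p = 0.000162, quasi-likelihood test of edgeR, adjusted by Benjamini-Hochberg over 13697 genes). Such errors and p-values use a spread estimated from the Ctrl and SCNx libraries together.

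Per2, the family member needed most for sustained rhythms, moved over the widest range of the 5 genes, 8.75-fold. It was lowest at CT4 and CT28, with 8.99 and 11.6 CPM, and rose through 31.2 and 31.7 CPM at CT8 and CT32 to 78.6 and 62.1 CPM at CT12 and CT36. Unlike Per1 it stayed high through the night, at 59.7 and 51.5 CPM in CT16 and CT40 and at 47.8 and 44.3 CPM in CT20 and CT44, before it reached 18.4 and 17.3 CPM at CT0 and CT24. The 6 libraries from CT12 to CT20 and from CT36 to CT44 were all above the 6 others. Its fitted log2 amplitude was 1.30 ± 0.13 with the peak at 14.8 ± 0.37 h and a peak-to-trough fold of 6.04 (adjusted p = 1.37e-05, same test).

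Per3, a paralog that contributes to the phase of tissue clocks and is less needed for the rhythm itself, had the earliest fitted peak. Its trough was at CT0 and CT24, with 8.68 and 8.80 CPM, the same times as that of Cry2 and 4 h before those of Per1 and Per2, and it had already climbed to 16.2 and 19.7 CPM at CT4 and CT28 and to 36.7 and 38.0 CPM at CT8 and CT32. It peaked at 53.2 and 43.1 CPM at CT12 and CT36, and fell through 33.2 and 32.3 CPM to 13 and 11.9 CPM at CT20 and CT44. Paired libraries of the same time of day differed by a median of 1.06-fold, and a 24 h cosine took up 97.7% of the variance of log2 CPM. The fitted log2 amplitude was 1.24 ± 0.087, the peak 11.4 ± 0.27 h and the peak-to-trough fold 5.61 (adjusted p = 1.41e-07, same test), and only 3 of the 13697 genes had a smaller p.

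Cry1, the stronger repressor of the cryptochromes, ran several hours behind. It was lowest at CT8 and CT32 (8.33 and 9.47 CPM), when Per3 was rising, and was at 9.13 and 10.9 CPM at CT4 and CT28. It rose through 21.2 and 18.7 CPM at CT12 and CT36 and 27.0 and 30.3 CPM at CT16 and CT40 to 33.5 and 35.3 CPM at CT20 and CT44, then came down to 20.3 and 22.9 CPM at CT0 and CT24. The 4 libraries of the middle and late night stood above all others, and the 4 of CT4, CT8, CT28 and CT32 below all others. The fitted log2 amplitude was 1.004 ± 0.082, the peak 18.4 ± 0.31 h and the peak-to-trough fold 4.02 (adjusted p = 1.09e-06, same test). The authors, with other methods and another threshold, did not count Cry1 as rhythmic in these Ctrl mice. What made the calls differ was not tested.

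Cry2, the weaker cryptochrome, had the flattest curve. It ranged from 25.9 CPM in Ctrl CT0 to 54.3 CPM in Ctrl CT12, with 26.5 CPM in CT24 and 51.6 CPM in CT36, and the 8 other libraries lay between 31.0 and 45.7 CPM. Its largest difference between mice of the same time of day was at CT4, 38.9 against 31.0 CPM, where the higher value is from the library with raised neuron markers, whose part in it was not tested. The fitted log2 amplitude was 0.41 ± 0.067, the peak 12.5 ± 0.63 h and the peak-to-trough fold 1.76 (adjusted p = 0.00140, same test). In the annotation Cry2 overlaps a transcript on the opposite strand, D930015M05Rik, and reads of the 2 genes were told apart only as far as the authors' counting used strand.

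**Figure D1:**
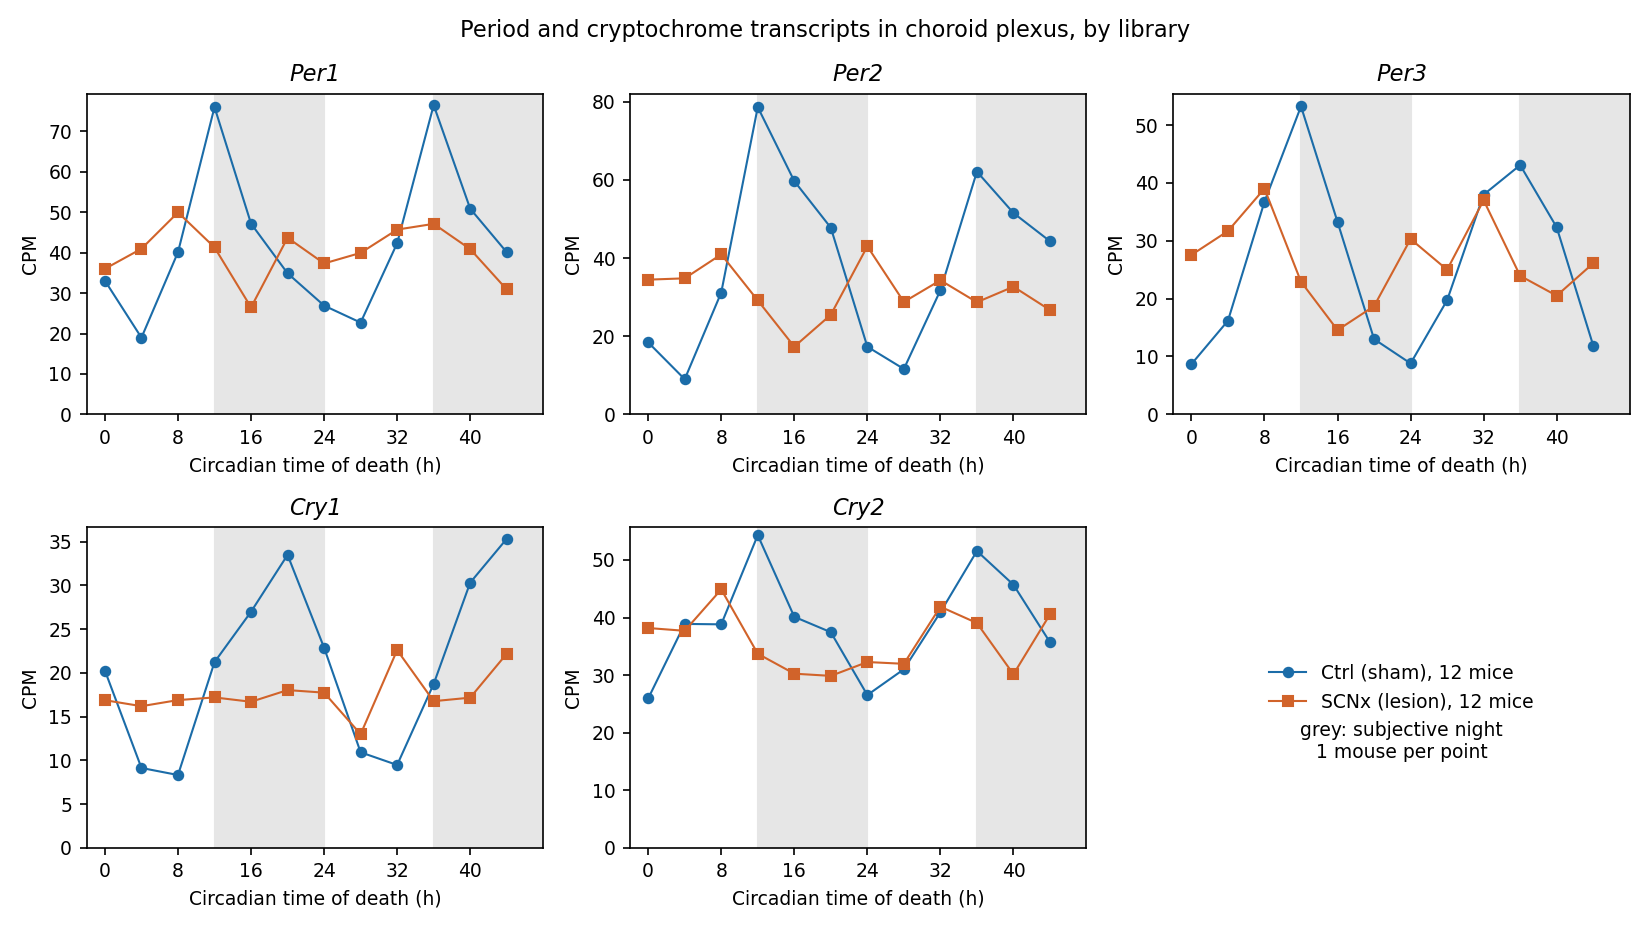
CPM of each gene (vertical axis, starting at 0) against circadian time of death in hours (horizontal axis), 1 point per mouse, for 12 Ctrl mice (blue circles) and 12 SCNx mice (orange squares), with subjective night in grey. Ctrl curves rise and fall on both days, Per3 from 8.68 to 53.2 CPM for example, while the SCNx points of each gene stay within the Ctrl range.

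By fitted peak the order in Ctrl was Per3, Cry2, Per1, Per2 and Cry1. Cry2 followed Per3 by 1.09 ± 0.68 h, Per1 followed Cry2 by 1.20 ± 0.81 h and Per2 followed Per1 by 1.11 ± 0.63 h (difference ± SE from the SEs of both peaks, which treats the genes as independent although they share libraries). Each of these gaps was less than 2 SE, so neighbours among the 4 earlier genes were not separated at this sampling of 1 mouse every 4 h. Cry1 followed Per2 by 3.63 ± 0.48 h and Per3 by 7.03 ± 0.41 h, well over the error of the fit.

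Whether the curves departed from a single cosine was asked with a second wave of 12 h in the model. In Ctrl it had a log2 amplitude of 0.34 ± 0.070 for Per1 and 0.42 ± 0.092 for Per2, the genes with the steepest rise between CT4 and CT12. The unadjusted p was 0.000750 and 0.00158, but none of the 5 genes passed the adjustment (adjusted p from 0.642 to 1, edgeR's quasi-likelihood test), nor did any of the 13697 genes in Ctrl or SCNx (0% called, and 4.19% and 7.59% at an unadjusted p under 0.05, where 3 and 2 of the 5 genes stood). The mean of the second day was not called different from that of the first for any of the 5 genes in either group (0% of all genes called in Ctrl and in SCNx, and 3.8% and 16% at an unadjusted p under 0.05, where none of the 5 stood). Per1, for example, averaged 41.7 CPM over the first 6 Ctrl mice and 43.2 over the last 6 (log2 difference 0.06 ± 0.11, adjusted p = 0.924).

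After SCN lesion none of the 5 genes was called as a 24 h rhythm, and 0% of all genes tested were (14.8% at an unadjusted p under 0.05, and 1 of the 5 genes, Per3). The values drew in towards the mean of Ctrl. In all 5 genes the SCNx range lay inside the Ctrl range, which was so for 16.7% of all genes, and in all 5 the SD of log2 CPM was lower in SCNx, against 37.5% of all genes. The shares among the genes rhythmic in Ctrl were not computed, so the narrowing cannot be read as particular to these 5. The largest span among SCNx mice was 2.68-fold, for Per3, and the smallest 1.5-fold, for Cry2. The SD of log2 CPM was 0.26 in SCNx against 0.62 in Ctrl for Per1, and 0.35 against 1.01 for Per2. It was 0.41 against 0.93 for Per3, 0.21 against 0.76 for Cry1 and 0.21 against 0.33 for Cry2. In bulk tissue, weaker rhythms within cells and cells out of phase with each other cannot be told apart. With 1 mouse per time, the part of mice out of phase with each other was not tested.

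Per1 lay between 26.5 CPM (SCNx CT16) and 49.98 CPM (SCNx CT8) with a median of 40.9 CPM, and its libraries at CT12 and CT36, the peak in Ctrl, had 41.3 and 47.1 CPM. Per2 lay between 17.3 CPM (SCNx CT16) and 43.0 CPM (SCNx CT24) with a median of 30.9 CPM. Its 2 mice killed at the same time of day differed by up to 1.89-fold, against 1.29-fold in Ctrl. Cry1 had the smallest fitted amplitude and lay at 16.2 to 18.0 CPM in 9 of 12 libraries. It had 13 CPM in SCNx CT28, 22.6 CPM in SCNx CT32 and 22.2 CPM in SCNx CT44. The latter 2 are the libraries with raised neuron and astrocyte markers and with raised blood markers, whose part in these values was not tested. Cry2 lay between 29.9 CPM (SCNx CT20) and 44.9 CPM (SCNx CT8) with a median of 35.7 CPM. The fitted log2 amplitude was 0.21 ± 0.10 for Per1, 0.28 ± 0.13 for Per2, 0.07 ± 0.082 for Cry1 and 0.15 ± 0.067 for Cry2 (SE, n = 12), with adjusted p between 0.414 and 0.848 (edgeR's quasi-likelihood test).

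Per3 kept the largest variation. It was highest at CT8 and CT32 (39 and 37 CPM), close to the Ctrl libraries of those times, and lowest at CT16 and CT40 (14.6 and 20.5 CPM), when Ctrl mice had 33.2 and 32.3 CPM. At CT0, CT4 and CT12 it had 27.6, 31.7 and 22.9 CPM on the first day and 30.3, 25.0 and 23.9 CPM on the second, and at CT20 and CT44 18.7 and 26.1 CPM. Both days thus had their highest value at midday, 4 h before the time of the highest Ctrl value. The fitted log2 amplitude of 0.44 ± 0.086 was 35.3% of that in Ctrl, and the fitted peak was at 5.21 ± 0.75 h. Its unadjusted p of 0.000285 ranked 20 of 13697, and the adjusted p was 0.137 by edgeR's quasi-likelihood test. Over the alternatives to this fit the adjusted p ranged from 0.00192 to 0.515. It passed without the minimum on expression and with DESeq2's likelihood ratio test (adjusted p = 0.0112). Those settings called many other genes in SCNx too, 1384 of 40287 and 432 of 13697 in this order.

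The test of the difference itself, in which both 24 h terms were compared between the groups, called 4 of the 5 genes, against 2.12% of all genes. Per3 had the smallest p of all 13697 genes (adjusted p = 3.37e-05, edgeR's quasi-likelihood test), and Per2 (0.000285) ranked 12, Cry1 (0.000384) 15 and Per1 (0.0198) 119. The SCNx amplitude was 6.82% of that in Ctrl for Cry1, 21.9% for Per2, 27.8% for Per1, 35.3% for Per3 and 36.9% for Cry2. Over 36 other fits of a cosine this share ranged from 1.71% to 16.6% for Cry1, from 14.2% to 29.7% for Per2, from 23.6% to 39.5% for Per1, from 29.2% to 42.2% for Per3 and from 28.4% to 56.3% for Cry2, with the highest value for Cry2 without SCNx CT44. Cry2 missed the threshold with an adjusted p of 0.0509 and passed in 11 of 36 alternative fits, among them those without Ctrl CT4 (adjusted p = 0.0202) and without both that library and SCNx CT32, the 2 with raised neuron markers (0.0158). Over its alternatives the adjusted p ranged from 0.00714 to 0.214. For Per1 it rose to 0.0604 in 1 of 36, a model with a level per time of day in place of a cosine.

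**Figure D2:**
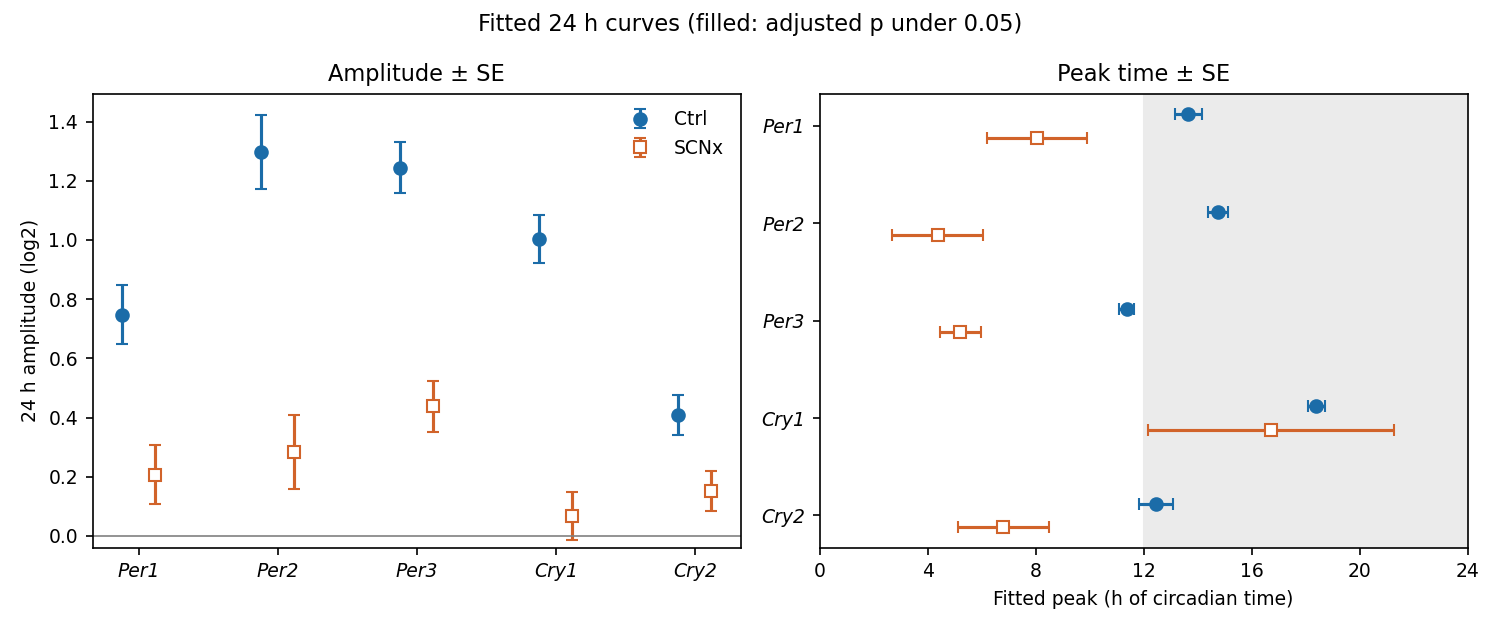
Left, fitted 24 h amplitude in log2 units ± SE for Ctrl (blue circles) and SCNx (orange squares) of each gene; right, fitted peak in hours of circadian time ± SE, with subjective night in grey. Filled symbols passed an adjusted p of 0.05, as all 5 Ctrl rhythms and none of SCNx did, and the SCNx amplitudes lie at 6.82% to 36.9% of those in Ctrl.

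The groups differed in opposite directions at different times of day, as the plot of the differences by time of day shows. Each of these comparisons rests on 2 mice per group, and p-values were adjusted over the genes within a time. At 0 h Per3 was 27.6 and 30.3 CPM in SCNx against 8.68 and 8.80 in Ctrl, a log2 difference of 1.72 ± 0.18 (SE). It was the 1 of the 5 genes called at this time (adjusted p = 0.00553, edgeR's quasi-likelihood test; 0.073% of all genes were called). The 27.6 CPM are from SCNx CT0, the library with raised hepatocyte markers, and without it the log2 difference was 1.73 (adjusted p = 0.0386). The call was lost without either Ctrl library of this time, CT0 (1.70, adjusted p = 0.135) or CT24 (1.74, adjusted p = 0.119). At 8 h Cry1 was 16.9 and 22.6 CPM in SCNx against 8.33 and 9.47 in Ctrl, a log2 difference of 1.15 ± 0.15, and was the 1 gene called of all those tested (adjusted p = 0.0485, 0.0073% called). The 22.6 CPM are from SCNx CT32, the library with raised neuron and astrocyte markers, without which the log2 difference was 0.92 (adjusted p = 0.485). This call was lost in 19 of 26 alternatives, those without Ctrl CT8 or Ctrl CT32 among them (adjusted p = 0.572 and 0.426). At 12 h Per2 was 29.2 and 28.7 CPM in SCNx against 78.6 and 62.1 in Ctrl, and Per3 was 22.9 and 23.9 CPM against 53.2 and 43.1. These log2 differences of -1.28 ± 0.23 (adjusted p = 0.0341) and -1.04 ± 0.18 (adjusted p = 0.0259) were the 2 calls among the 5 genes at this time (0.336% of all genes were called). The Per2 call was lost in 14 of 26 alternatives and the Per3 call in 6 of 26, some of them without a library of another time. Both were lost without any 1 of the 4 libraries of this time. The log2 differences then ran from -1.43 to -1.10 for Per2 and from -1.19 to -0.86 for Per3.

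At 4, 16 and 20 h none of the 5 genes passed (0%, 0% and 0.0657% of all genes called), with adjusted p of at least 0.0907. At an unadjusted p under 0.05 they were 4, 5 and 3 of the 5, against 9.29%, 5.11% and 9.28% of all genes. The sizes were no smaller there for some of them. Per2 at 4 h was 34.8 and 28.8 CPM in SCNx against 8.99 and 11.6 in Ctrl, a log2 difference of 1.63 ± 0.24 (adjusted p = 0.175), and this was its largest difference at any time. It passed without Ctrl CT28 (adjusted p = 0.0239), SCNx CT16 (0.00718) or SCNx CT40 (0.00719). Cry1 at 20 h was 18.0 and 22.2 CPM against 33.5 and 35.3 (log2 difference -0.78 ± 0.14, adjusted p = 0.0907), which passed without SCNx CT8 (0.0391) or SCNx CT32 (0.0345). Per1 differed most at 4 h, 41.0 and 40.0 CPM against 19.0 and 22.7 (0.96 ± 0.19, adjusted p = 0.474). Cry2 differed by at most 0.54 in size, at 12 h, where SCNx mice had 33.7 and 39 CPM against 54.3 and 51.6 (adjusted p = 0.235).

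**Figure D3:**
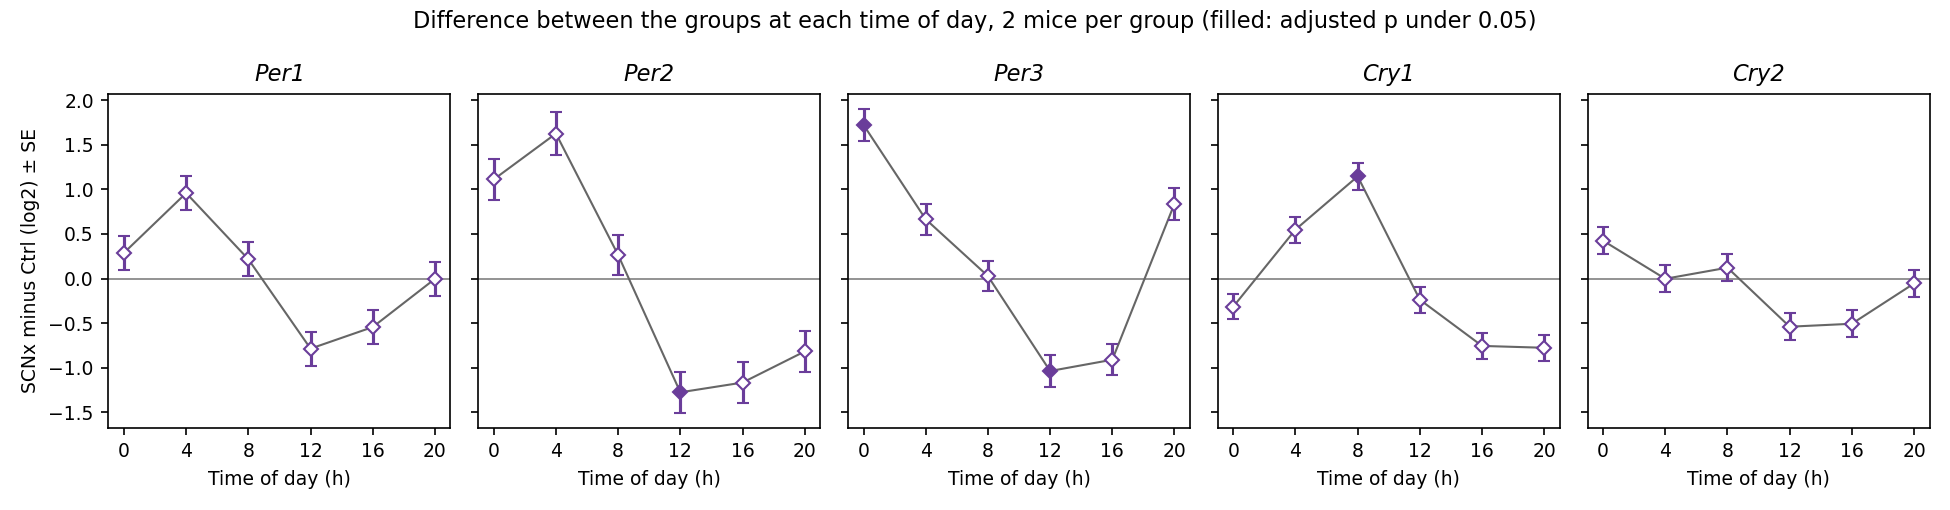
Fitted log2 difference SCNx minus Ctrl ± SE (vertical axis) against time of day in hours (horizontal axis) for each gene, with 2 mice per group at each time. Filled symbols passed an adjusted p of 0.05 with all libraries: Per3 at 0 h (1.72) and 12 h (-1.04), Per2 at 12 h (-1.28) and Cry1 at 8 h (1.15).

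Averaged over all times, the level of none of the 5 genes was called different between the groups (0% of all genes called, and 9.37% of all and 0 of the 5 at an unadjusted p under 0.05). Mean CPM in Ctrl and SCNx was 42.5 ± 18.4 and 40.0 ± 6.67 for Per1, 38.6 ± 22.3 and 31.4 ± 6.95 for Per2, 26.2 ± 15 and 26.4 ± 7.20 for Per3, 20.6 ± 9.66 and 17.6 ± 2.57 for Cry1, and 38.9 ± 8.76 and 35.9 ± 5.15 for Cry2 (SD, n = 12). The fitted log2 differences SCNx minus Ctrl were -0.09 ± 0.18, -0.30 ± 0.28, 0.01 ± 0.27, -0.23 ± 0.21 and -0.12 ± 0.11 in this order (SE), with adjusted p between 0.752 and 0.995 (edgeR's quasi-likelihood test). The 95% interval was narrowest for Cry2, from -0.33 to 0.09, and widest for Per2, from -0.84 to 0.24. This fit held a mean per group alone, so its errors include the change over the day within each group. With the 24 h cosine and sine kept in the model, 0 of 13697 genes were called for their level.

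To compare the genes with each other, CPM were divided by the length of the longest coding transcript in GENCODE M21, an annotation of another build. On this scale of CPM per kilobase, Cry2 was highest in Ctrl with 9.79 ± 2.20, followed by Per1 with 9.10 ± 3.94, Cry1 with 6.81 ± 3.19, Per2 with 6.62 ± 3.82 and Per3 with 4.37 ± 2.5 (SD, n = 12). The means of neighbours in this order differed by less than their SDs, which include the change over the day. Within libraries, Per1 was above Cry1 in 9 of 12 in Ctrl and 11 of 12 in SCNx. Per2 was above Per3 in 8 and 11 of 12. The other neighbours were less separated, with Per1 above Cry2 in 4 and 5 of 12 and Per2 above Cry1 in 5 and 5. Per3 was below both Cry2 and Per1 in 12 of 12 Ctrl and 12 of 12 SCNx libraries. The order of the others depended on the time of day in Ctrl, where Cry1 was above Per1 in 3 of 12 libraries and above Cry2 in 4, while in SCNx Cry1 was above Per1 in 1 of 12 and above Cry2 in none. For Cry2 and Per1 shorter coding transcripts are annotated (2160 and 3507 bases against 3976 and 4671), and which of them the ChP uses was not tested.

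Across mice, the 5 genes and Arntl, which encodes the activator BMAL1, were compared in 30 relations, 15 in each group, with 100000 permutations and Benjamini-Hochberg adjustment. In Ctrl the points share the time of day, so that genes with like phases rise and fall together. Per1 and Per2 went together most closely (Pearson's r = 0.92, adjusted permutation p = 0.000300; Spearman's rho = 0.92, 0.000900; r = 0.90 without the 2 mice farthest from the median of Per1). Per3 ran opposite to Arntl (r = -0.97, adjusted permutation p = 0.000300; rho = -0.98, 0.000300; r = -0.96 without 2 mice). Per3 and Cry2 had r = 0.86 (adjusted permutation p = 0.00170; rho = 0.88, 0.00270; r = 0.73 without 2 mice). Cry1 stood apart, with r between -0.27 and 0.57 to the other 4 genes and 0.39 to Arntl, none of which passed.

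In SCNx, where no 24 h rhythm was called, 4 of the 15 relations passed between mice. Per3 went with Per2 (r = 0.85, adjusted permutation p = 0.00443; rho = 0.80, 0.0142; r = 0.78 without 2 mice), a pair that did not pass in Ctrl (r = 0.57, adjusted permutation p = 0.107; rho = 0.60, 0.0910; r = 0.69 without 2 mice). It also went with Cry2 (r = 0.79, adjusted permutation p = 0.00975; rho = 0.78, 0.0194; r = 0.68 without 2 mice), and opposite to Arntl (r = -0.70, adjusted permutation p = 0.0328; rho = -0.75, 0.0240; r = -0.56 without 2 mice). Cry2 also ran opposite to Arntl (r = -0.69, adjusted permutation p = 0.0249; rho = -0.71, 0.0291), but with r = -0.46 without 2 mice. Per1 with Per2 had r = 0.61 in SCNx, which did not pass (adjusted permutation p = 0.0918; rho = 0.24, 0.596) and rested on 2 mice, since r was -0.10 without them. Whether the correlations differ between the groups was not tested. Of the 10 pairs among the genes, 5 passed in Ctrl and 2 in SCNx. For these counts, and for the 4 of 15 in SCNx, the share over pairs of other genes was not computed. They therefore cannot be read as particular to these genes.

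**Figure D4:**
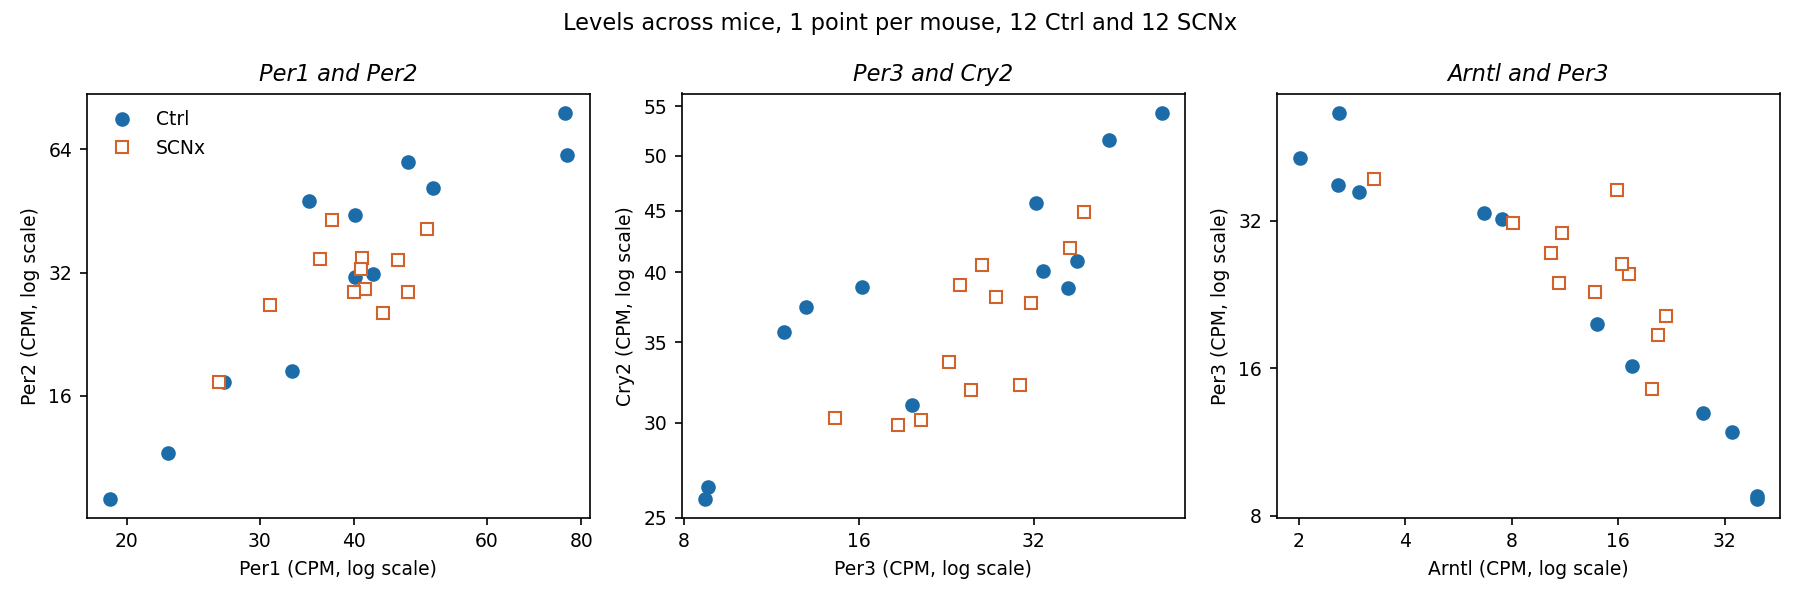
CPM on log2-scaled axes, 1 point per mouse, for Per2 against Per1, Cry2 against Per3 and Per3 against Arntl, with 12 Ctrl mice (filled blue circles) and 12 SCNx mice (open orange squares). Per3 falls as Arntl rises in both groups (r = -0.97 in Ctrl and -0.70 in SCNx), and the SCNx values of each gene lie within its Ctrl range.

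For each of the 5 genes the other genes with the most similar pattern in Ctrl were listed by Pearson's r of log2 CPM over the 12 Ctrl libraries, as a description without a test. Per1 was most like Jph1 (r = 0.98), Zfp467 (0.96) and Usp2 (0.96), and most opposite to Kit (-0.94). In SCNx these r were -0.03, 0.35, 0.46 and 0.13. Per2 was most like Plscr4 (0.98), Ntn4 (0.97) and Plk5 (0.95), with r of 0.67, 0.16 and 0.50 in SCNx. Per3 was most like Tef (0.98), which encodes a D-box factor, Tspan4 (0.96) and Ralgapa2 (0.96), with r of 0.84, 0.42 and 0.48 in SCNx. Cry1 was most like Preb (0.98), Nit1 (0.96) and Gm19522 (0.95), with r of 0.27, -0.16 and 0.78 in SCNx. Cry2 was most like Jdp2 (0.97), Lrp3 (0.95) and again Tef (0.93), with r of 0.76, 0.63 and 0.83 in SCNx. Genes were chosen here for their r in Ctrl, so that a lower r in SCNx has to be read with that choice.

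The rest of the pathway was counted from fixed lists. Of the activators Arntl, Clock and Npas2, 3 of 3 were rhythmic in Ctrl, as were 3 of 3 other E-box repressors (Ciart, Bhlhe40, Bhlhe41) and 4 of 4 D-box factors (Dbp, Tef, Hlf, Nfil3). Over all genes tested 10.7% were rhythmic in Ctrl. The difference between the groups was called for 2, 2 and 4 of them, against 2.12% of all genes, and no gene of these lists was called in SCNx. The median log2 amplitude in Ctrl was 1.27 for the activators, 1.12 for the repressors and 1.08 for the D-box factors, beside 1.004 for the 5 Per and Cry genes and 0.11 for all genes tested. Nr1d1, which encodes the repressor REV-ERBα, peaked at 7.55 ± 0.26 h, before Per3 at 11.4 ± 0.27 h.

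Of 19 kinases, phosphatases and ubiquitin enzymes that modify PER and CRY proteins, 4 were rhythmic in Ctrl, against 10.7% of all genes, and for none was a difference between the groups called, against 2.12%. The median log2 amplitude of the 19 was 0.06, beside 0.11 for all genes. The 4 were Usp2, a deubiquitinase that spanned 2.52-fold over the Ctrl libraries (log2 amplitude 0.37 ± 0.093, peak 13.8 h), Ddb1 of a ubiquitin ligase (0.20 ± 0.047, peak 4.48 h), Prkaa1 of AMP-activated kinase (0.14 ± 0.035, peak 10.5 h) and Csnk1d, the casein kinase that phosphorylates PER (0.09 ± 0.021, peak 17.5 h). Of 13 partners in PER complexes 1 was rhythmic, a number near the 10.7% of all genes. It was Cipc (0.16 ± 0.031, peak 11.7 h, adjusted p = 0.00519, edgeR's quasi-likelihood test). For none of the 13 was a difference between the groups called, against 2.12% of all genes.

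Of 12 genes of the CREB and glucocorticoid inputs, 4 were rhythmic in Ctrl, against 10.7% of all genes, and the difference was called for 3 of them, against 2.12%. Tsc22d3, a glucocorticoid target, had a log2 amplitude of 0.75 ± 0.081 and peaked at 14.6 ± 0.41 h, near Per2 at 14.8 ± 0.37 h, and Fkbp5, another target, had 0.74 ± 0.14 with the peak at 12.6 ± 0.71 h. Crem, a CREB family member, had 0.51 ± 0.057 with the peak at 20.6 ± 0.43 h. In SCNx their amplitudes were 0.17 ± 0.081, 0.21 ± 0.14 and 0.14 ± 0.057. Sgk1 (0.43 ± 0.080) was rhythmic in Ctrl without a called difference. Creb1, Nr3c1, which encodes the glucocorticoid receptor, and the other genes of the list did not pass in either group.

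In the KO, 1 mouse per time was measured, so no test was made, and intervals cover counting error only. The KO libraries were made with another kit from laser-captured tissue, and their epithelium markers summed to 81737 and 86121 CPM against at least 105920 in the other libraries, while neuron markers summed to 194 and 281 CPM and oligodendrocyte markers to 255 and 364 CPM. The part of these differences in the values below was not tested. KO values are CPM of the library total, so their levels are set beside those of Ctrl and SCNx without a comparison. Arntl itself was at 10.6 CPM at ZT7 and 9.36 CPM at ZT18, between the extremes of 2.01 and 39.4 CPM in Ctrl. A count over the whole gene includes the exons outside the floxed part and does not check the deletion.

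Per1 was 42.8 CPM at ZT7 (95% interval 39.7 to 45.9) and 68.3 at ZT18 (64.6 to 72.3), a log2 difference night minus day of 0.68. Per2 was 35 and 49.2 CPM (0.49), Per3 27.1 and 35.8 CPM (0.40), Cry1 19.3 and 22.1 CPM (0.20) and Cry2 30.8 and 38.1 CPM (0.31). All 5 genes were higher at night, but so was the median gene, with 0.13 over 15050 genes (90% of them from -0.54 to 0.86). With TMM scaling of the 2 libraries the differences were 0.54, 0.35, 0.26, 0.06 and 0.17. None of the 5 reached 2-fold, against 3.45% of all genes that were at least 2-fold higher and 1.34% at least 2-fold lower at night.

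The nearest libraries of the other groups were those of 8 h for the day, 2 mice, and those of 16 and 20 h for the night, 4 mice. In Ctrl, Cry1 rose from a mean of 8.90 CPM by day to 31.5 CPM at night, a log2 difference of 1.83. In the KO its values were 19.3 and 22.1 CPM, and in SCNx the means were 19.7 and 18.5 CPM. Per3 went the other way in Ctrl, from 37.4 to 22.6 CPM (log2 difference -0.72), and in SCNx, from 38.0 to 20.0 CPM (-0.93). It was higher at night in the KO. Per2 was higher at night in Ctrl (31.4 and 50.8 CPM) and lower in SCNx (37.6 and 25.5 CPM). Per1 and Cry2 had nearly equal means by day and night in Ctrl (log2 difference 0.07 and -0.004). Which of these KO values reflect the time of day and which the individual mouse cannot be told apart.

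**Figure D5:**
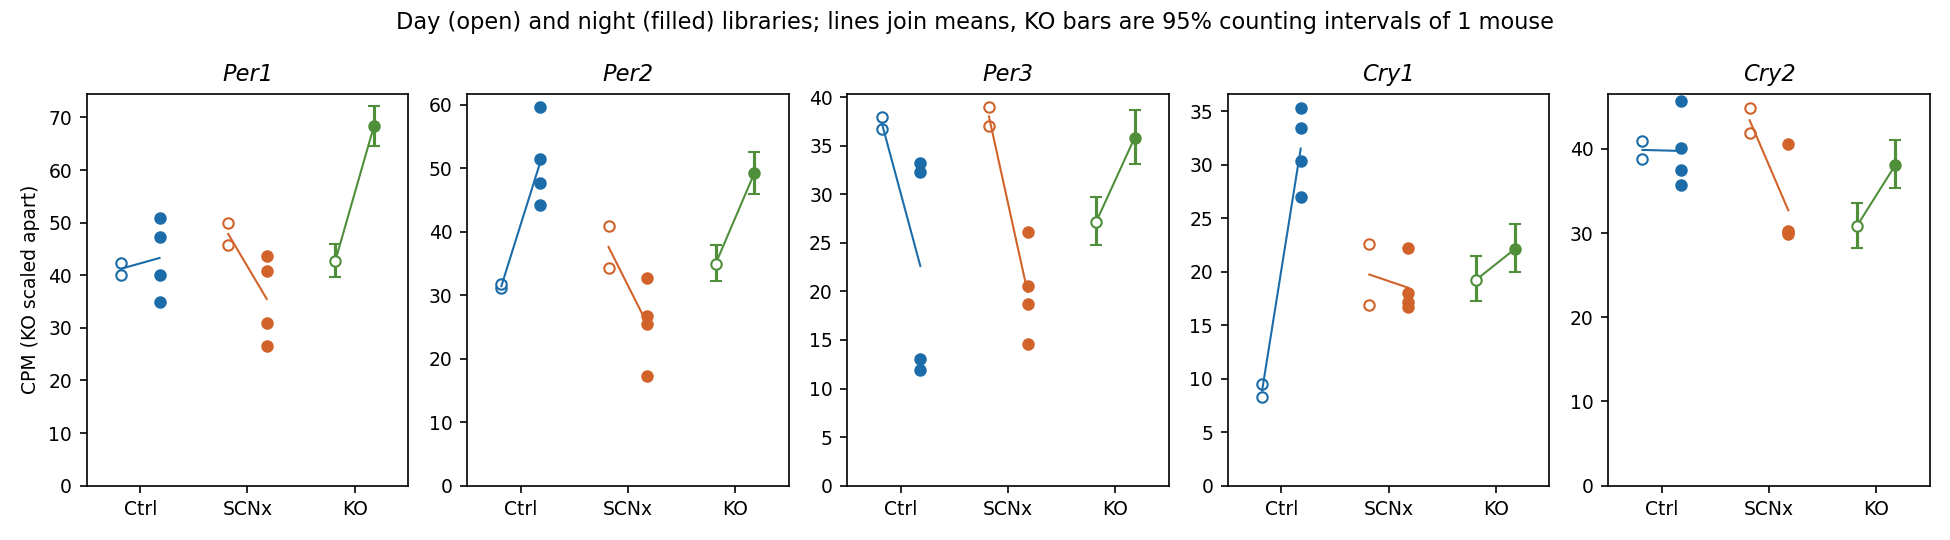
CPM (vertical axis, starting at 0) of each gene in day (open) and night (filled) libraries of Ctrl (blue, 2 day and 4 night mice), SCNx (orange, 2 and 4) and KO (green, 1 and 1), with lines between means and 95% counting intervals for the KO. Cry1 goes from 8.90 to 31.5 CPM in Ctrl, and from 19.3 to 22.1 CPM in the KO, which was scaled apart from the other groups.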

How the data were processed

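Total RNA of ChP from the fourth ventricle was sequenced as 1 library per mouse. For Ctrl and SCNx the tissue was taken with pincers and libraries were made from polyadenylated RNA with the KAPA mRNA HyperPrep kit. For the KO it was taken by laser capture from frozen brains and made into total RNA libraries with a low-input SMARTer kit. The authors ran the nf-core/rnaseq pipeline against GRCm39 and deposited estimated counts per gene from Salmon 1.9.0, with STAR, SAMtools 1.16.1, StringTie 2.2.1 and cutadapt 3.4 also named in the submitters' processing notes. These counts were not normalized, 13.7% of the values were not whole, and they were rounded here.

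A gene was kept where its mean CPM reached 1 in both surgical groups (13697 genes), and libraries were scaled with TMM in edgeR 4.0.16 (R 4.3.3). A mean and a cosine and sine of 24 h per group were fitted to the 24 libraries and tested by the quasi-likelihood method of edgeR. P-values were adjusted by Benjamini-Hochberg over all tested genes, with a threshold of 0.05. Errors of amplitudes and peaks come from the fit, in which both groups shared 1 estimate of the spread per gene. Other models had a mean per group, an added 12 h wave, a level per time of day, or a term for the second day. Each time of a group is a separate mouse, so that mice of both groups share times but no pairing. The methods the study used for rhythms (eJTK, ARSER, BIO_CYCLE) were not used here, and a rank test like the first of them was programmed in Python 3.11.15 (numpy 2.4.6, pandas 2.3.3, scipy 1.17.1). Further alternatives were DESeq2 1.42.0, limma-trend (limma 3.58.1), other scalings and minimums, other periods, and leaving out each library in turn (for the comparisons at a time of day, chosen after seeing the data). The tests of the 24 h rhythm, of its difference, of the level and of SCNx against Ctrl at 8 h were first tried on simulated data. The rank test was tried on such data too. KO libraries were described only, with exact Poisson intervals of 95%. Figures were drawn with matplotlib 3.10.9.

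The genes named are the 5 members, the 3 most similar and the 1 most opposite gene to each over the Ctrl libraries, and genes of lists of the clock pathway and of cell type markers, some of which are not reported here. The members and lists were chosen with earlier results of these data known. Depth limits little here, since the 5 genes had at least 347 counts in every Ctrl and SCNx library.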

Additional observations from a re-analysis of the deposited data

Results flagged for a closer look

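The 24 h rhythm differed between Ctrl and SCNx for 4 of the 5 genes by the test of the difference itself (quasi-likelihood test of edgeR, adjusted by Benjamini-Hochberg over 13697 genes, 2.12% of which were called). The adjusted p was 3.37e-05 for Per3, 0.000285 for Per2, 0.000384 for Cry1 and 0.0198 for Per1. In each of the 4 the amplitude was lower in SCNx, at 35.3%, 21.9%, 6.82% and 27.8% of that in Ctrl in this order, and at 29.2% to 42.2%, 14.2% to 29.7%, 1.71% to 16.6% and 23.6% to 39.5% over 36 other fits. No test for single outlying samples was made in the groups of 12 mice.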

How the results depend on the processing

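Over the alternatives, the rhythm calls of the 5 genes in Ctrl held in all 38 settings each, no level was called in any of 34 settings each, and no called value changed direction. Among values that were not called some changed sign, such as the level of Per1 (-0.18 to 0.02, in 5 of 34 settings) and of Per3 (-0.10 to 0.23, in 12 of 34). The number of the 5 genes called rhythmic in SCNx was 0 in the fit reported and 1, Per3, without the minimum on expression and with DESeq2's likelihood ratio test. Over all genes, these settings called 1384 of 40287 and 432 of 13697 in SCNx, in this order, against 0 of 13697 in the fit reported. The difference for Per1 was lost with a level per time of day (adjusted p = 0.0604). The difference for Cry2 passed without the minimum (adjusted p = 0.0137), with limma-trend (0.0473), DESeq2 (0.00714) or a period of 25 h (0.0491), without both libraries with neuron transcripts (0.0158), and without Ctrl CT4 (0.0202), Ctrl CT16 (0.0499), SCNx CT8 (0.0403), SCNx CT28 (0.0223), SCNx CT32 (0.0408) or SCNx CT44 (0.0283), and the cause was not tested. Of the 30 comparisons of a gene at a time of day, 4 were called in the fit reported and from 0 to 6 when 1 library was left out, an alternative chosen after seeing the data, in which the lone mouse of a group at that time is assumed to vary like the others. With the rank test all 5 genes passed in Ctrl (q from 0.00274 to 0.0241) and none in SCNx (q from 0.515 to 0.873). Of the correlations, Per2 with Arntl in SCNx passed by Spearman's rho alone (-0.67, adjusted permutation p = 0.0442).

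Counts over all genes moved more than those of the 5. Rhythms in Ctrl numbered from 526 (a level per time of day) to 2249 (without SCNx CT32) against 1459, and were 918 without Ctrl CT44 and 1997 with a separate fit per group. Those in SCNx numbered from 0 to 1384 (no minimum), differences of the rhythm from 64 (a level per time of day) to 654 (no minimum) against 291, and differences of level from 0 to 7 (DESeq2). Leaving out 1 library gave 163 (SCNx CT16), 175 (SCNx CT12), 183 (Ctrl CT12), 189 (Ctrl CT44), 191 (Ctrl CT24), 192 (Ctrl CT20) or 466 (SCNx CT32) differences of the rhythm. The labels number no replicates, and mice of the 2 groups share only their time of death. With that time as a replicate block, no level was called over all genes (0, and 937 at an unadjusted p under 0.05), and the log2 differences of the 5 genes were 0.01 for Per1, -0.07 for Per2, 0.20 for Per3, -0.08 for Cry1 and -0.10 for Cry2 (adjusted p of at least 0.913 in edgeR). With 1 mouse per time, p-values of the 24 h rhythm measure the spread around fitted curves. Those of the level with a mean per group alone measure a spread that includes the change over the day. Peaks are no finer than the sampling of 4 h allows.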

Other observations

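In SCNx the fitted curves of 4 of the 5 genes peaked in the subjective day, at 4.37 ± 1.69 h for Per2, 5.21 ± 0.75 h for Per3, 6.81 ± 1.70 h for Cry2 and 8.06 ± 1.84 h for Per1 (SE), and that of Cry1 at 16.7 ± 4.55 h. None of these rhythms passed the adjustment, so the peaks are values of the fit only. In the pathway lists, 11 genes were rhythmic in Ctrl with a peak within 2 h of that of Per3, a window chosen after the values were seen. Their fitted SCNx peaks ran from 2.83 ± 2.51 h for Fkbp5 to 10.5 ± 2.90 h for Cipc with a median of 6.41 h, and none was called in SCNx (adjusted p of at least 0.137, edgeR's quasi-likelihood test). Ciart, 1 of the 11, which encodes the repressor CHRONO, had a log2 amplitude of 1.23 ± 0.25 in SCNx (adjusted p = 0.137, edgeR's quasi-likelihood test) against 2.81 ± 0.26 in Ctrl. A single mouse, SCNx CT8, held the highest SCNx value of Ciart (5.23 CPM, median 1.16) and Dbp (88.5 CPM, median 25.4). It also held that of Tef, Hlf, Nr1d2, Bhlhe40, Bhlhe41 and Sgk1, and of Per1, Per3 and Cry2. Fkbp5, Prkaa1 and Cipc were highest in other SCNx libraries. The part of SCNx CT8 in the fitted peaks of these pathway genes was not tested. In the fit without this library no gene was called rhythmic in SCNx (0 of 13688). That fit also gave the lowest SCNx amplitude of Cry2, 28.4% of that in Ctrl against 36.9% with all libraries.

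Per1, Per2 and Per3 had their lowest SCNx value in the same library, SCNx CT16, with 26.5, 17.3 and 14.6 CPM. The mouse killed at the same time of the next day had 40.9, 32.7 and 20.5 CPM, and for these 3 genes this was the time with the largest difference between the 2 SCNx mice. Cry1 and Cry2 were alike in that pair, at 16.7 and 17.2 CPM and at 30.2 and 30.1 CPM.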
